A study of Mus musculus with 15 samples.

Results

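The genes described here are protein-coding genes that bone marrow-derived macrophages (BMDMs) expressed after LPS and that were at least 4 times lower when interferon gamma (IFNγ) was present. They were chosen from the measured values: a mean of at least 2 CPM in LPS (CPM is the count scaled to the size of the library, here after TMM normalization), an LPS mean at least 4 times the LPS/IFNγ mean, and a dsHMGB1 mean below 1.5 times the LPS mean. Genes whose symbols begin with Cxcl, Ccl, Il or Mmp were left out. The rule was applied after a filter on low counts and found 53 genes among the 13025 protein-coding genes that passed, of 51763 identifiers in all. Every one of the 53 had therefore passed that filter, which a gene could do through its LPS libraries alone. Of 9543 protein-coding genes with an LPS mean of 2 CPM or more, 73 (0.765%) were at least 4 times lower in LPS/IFNγ, and 84 were at least 4 times higher. The limit on the LPS mean drops genes that were low in LPS and higher in LPS/IFNγ, so these counts do not compare falls with rises.

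The macrophages came from wild-type C57BL/6NTac mice of 8 to 10 weeks, were grown from bone marrow with M-CSF and were pooled from 5 mice before seeding, so the 3 libraries of each condition are technical replicates and every error and p-value covers the spread between cultures and libraries, not between mice. Each of the 5 conditions lasted 24 h. Cells received PBS as the control, 5 µg/mL of fully reduced HMGB1 (frHMGB1), 5 µg/mL of disulfide HMGB1 (dsHMGB1), 1000 ng/mL LPS, or LPS with 20 ng/mL IFNγ (LPS/IFNγ, the M1 condition). The LPS/IFNγ cells received 100 ng/mL LPS according to the protocol and 1000 ng/mL according to the treatment label, so a lower LPS dose and the added IFNγ cannot be told apart as sources of the difference between LPS and LPS/IFNγ.

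LPS and dsHMGB1 are both ligands of TLR4. LPS is recognised by TLR4 with its partners MD-2 and CD14, and the receptor signals through MyD88 to NF-κB and AP-1 and through TRIF to IRF3 and type I interferon. IFNγ binds a different receptor, made of IFNGR1 and IFNGR2, which signals through the kinases JAK1 and JAK2. In macrophages IFNγ is known for raising antigen presentation, guanylate-binding proteins and nitric oxide, and also for holding down part of the TLR response. A gene can be lower with IFNγ because its induction is blocked, because a gene that resting cells already express is switched down, or both. The level in PBS shows where each gene lay relative to the control at 24 h, not its course before that.

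The libraries held 40934540 to 80925478 counts. PBS replicate 3 stood apart, with a correlation of log CPM to the other PBS libraries of 0.934 and 0.939 where all other replicate pairs lay between 0.987 and 0.993, and values without it are given beside the calls and folds it moves most. The 10 macrophage markers, mostly *Lyz2*, summed to 19220 to 23020 CPM in every library, while single members moved between conditions, such as *Mertk* with a mean of 63.5 CPM in PBS, 241 in LPS and 502 in LPS/IFNγ. Of 11 neutrophil markers, 4 (*Ly6g*, *Mpo*, *S100a9* and *Retnlg*) had 0 counts in all libraries, and the list, almost all of it *Csf3r*, summed to 51.4 to 94.9 CPM in PBS, 129 to 130 in LPS and 82.1 to 84.3 in LPS/IFNγ. The 9 erythroid, mast cell and endothelial markers summed to 12.9 to 29.7 CPM in PBS, 81.4 to 87.6 in LPS and 125 to 135 in LPS/IFNγ, almost all of it *Kdr*, and *Hbb-bs*, *Hba-a1* and *Mcpt4* had 0 counts throughout. The 10 lymphocyte markers, nearly all *Ighm* and *Cd4*, summed to 49.8 to 57.8, 23.2 to 27.6 and 28.5 to 30.5 CPM in the same order, and *Cd3e*, *Cd3d*, *Nkg7* and *Cd8a* had 0 counts. The 9 fibroblast markers summed to 111 to 228 CPM in PBS, 293 to 309 in LPS and 300 to 301 in LPS/IFNγ. The part of these cell types in the results was not tested. The IFNγ-inducible activator of MHC class II genes, *Ciita*, had a mean of 76.2 CPM in LPS and 308.3 in LPS/IFNγ. The feedback inhibitor *Socs1* stood at 199 and 357 CPM and the transcription factor *Irf1* at 1955 and 2422 CPM in the same order. The receptor chains *Ifngr1* and *Ifngr2* went the other way, with 164 CPM in LPS and 95.2 in LPS/IFNγ for the first and 194 and 139 CPM for the second.

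Against PBS, 46 of the 53 genes were called higher in LPS, 5 lower and 2 neither, at an adjusted p below 0.05 (edgeR quasi-likelihood test, Benjamini-Hochberg over 16919 genes). Of all genes tested, 26.7% were higher and 36.2% lower in LPS. In LPS/IFNγ, 27 of the 53 genes were higher than PBS, 16 lower and 10 neither, against a background of 29% higher and 31.2% lower. The median log2 fold change of the 53 genes was 3.47 in LPS and 1.06 in LPS/IFNγ, beside -0.27 and -0.15 over all genes, and both medians stay the same with *Csf2*, which had 0 PBS counts, set at its lower bound. The LPS and LPS/IFNγ libraries also chose the genes, so a high level in LPS and a low one in LPS/IFNγ were given by the rule, and what these comparisons add is the place of the PBS level. Both comparisons share the PBS libraries.

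By their calls the genes fell into 5 groups. The largest, with 27 genes, was higher than PBS in LPS and still higher in LPS/IFNγ. In it LPS/IFNγ kept a median of 15.5% (range 4.91% to 24.1%) of the rise in CPM that LPS gave over PBS. The rule, with LPS at least 4 times LPS/IFNγ, itself caps this share, so a low share was given by the choice of genes. Another 10 genes were higher in LPS and not called in LPS/IFNγ. In 9 genes LPS/IFNγ went below the control although LPS lay above it. A pair of genes (2 of the 53) had no call in LPS and were lower in LPS/IFNγ, and 5 were lower than PBS in LPS and lower still in LPS/IFNγ. Without PBS replicate 3 the groups held 29, 7, 10, 1 and 6 genes in this order. Summed over the 53 genes, the libraries had 1541 to 1664 CPM in PBS, 8313 to 8533 in LPS and 1507 to 1616 in LPS/IFNγ. A large part of each sum was 1 gene, *Tnfrsf1b*, with means of 920 CPM in PBS, 3848 in LPS and 755 in LPS/IFNγ. The sums therefore do not give the level of a typical gene of the 53, and the rule set the fall from LPS to LPS/IFNγ. In bulk RNA, fewer cells that express a gene and less RNA in each cell cannot be told apart.

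**Figure D1:**
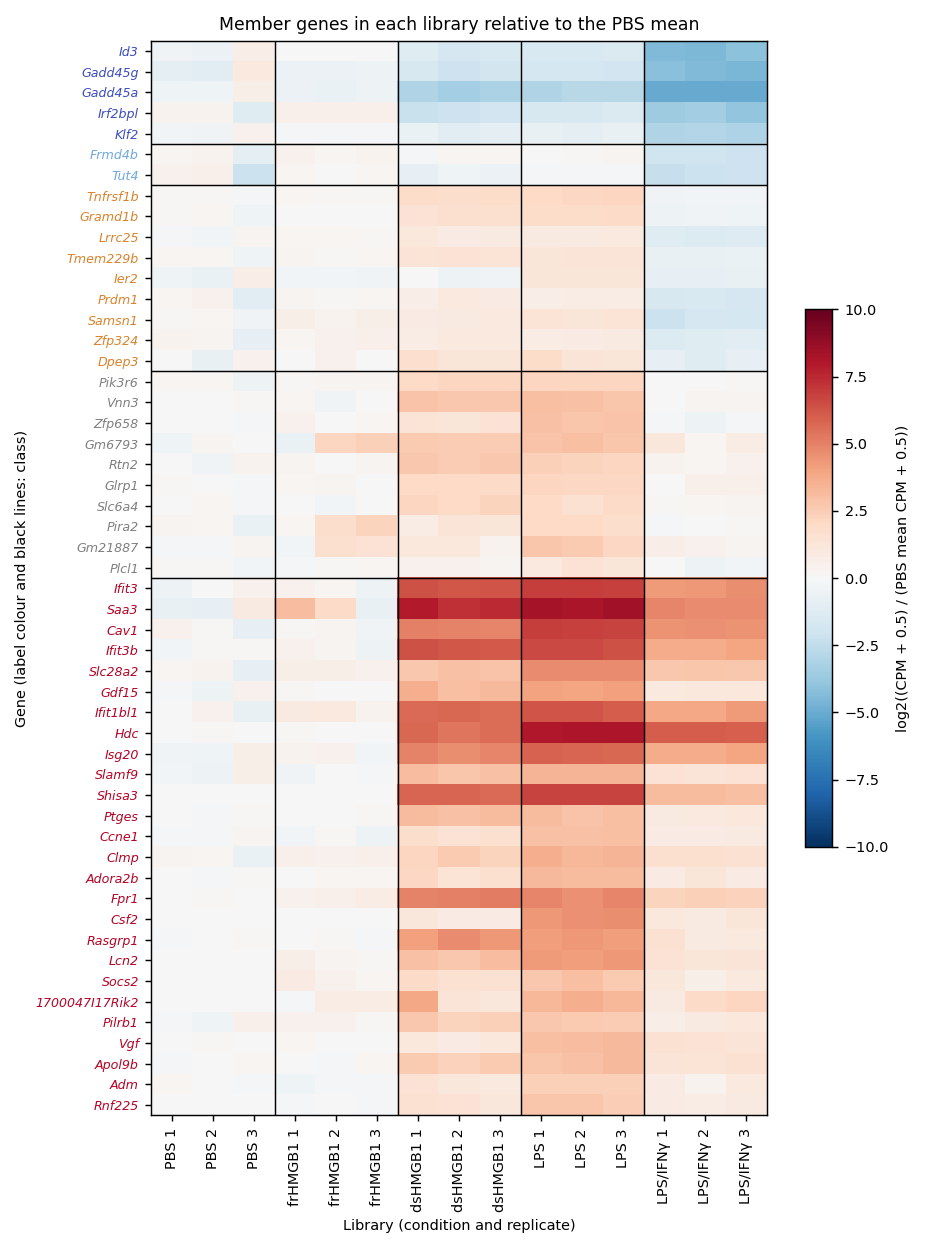
Heatmap of 52 of the 53 genes (rows, in the 5 groups described in the text, separated by black lines) in 15 libraries (columns). Colour is log2 of the ratio of CPM plus 0.5 to the PBS mean plus 0.5. The LPS/IFNγ columns are blue where LPS/IFNγ lay far below PBS, as in the uppermost group, and nearly white where it lay close to PBS, as for *Tnfrsf1b*. They are paler red than LPS in the lowest and largest group.

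**Figure D2:**
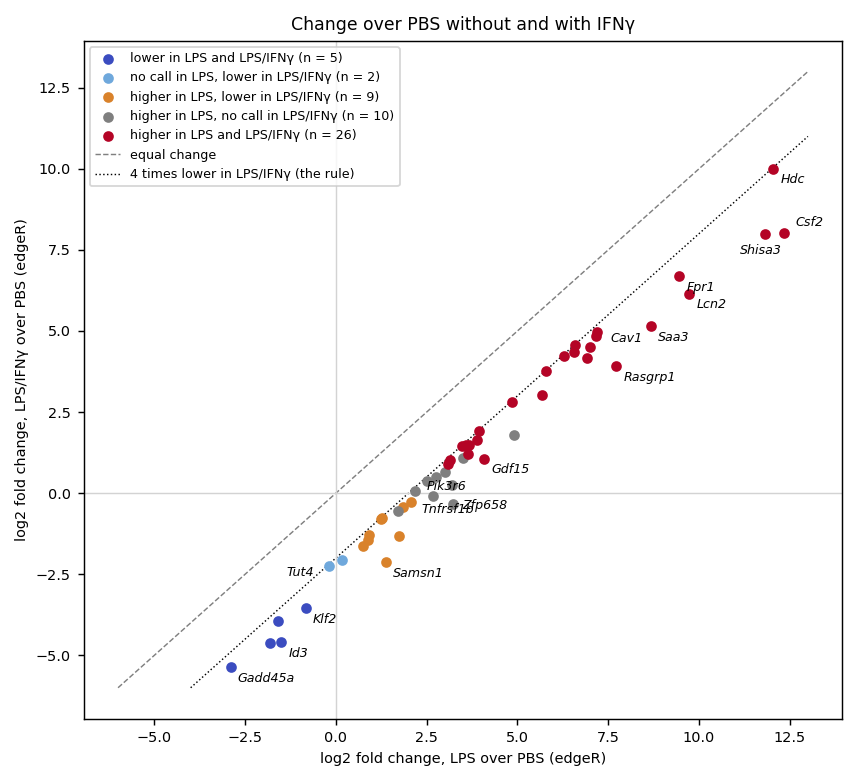
Log2 fold change over PBS in LPS (x axis) and in LPS/IFNγ (y axis) for 52 of the 53 genes, coloured by group. All points lie near or below the dotted line that the rule sets at 4 times lower in LPS/IFNγ, so what can be read is where the points fall relative to 0 on each axis. The fitted fold change of *Csf2*, which had 0 counts in PBS, depends on the prior count and is not a measured fold.

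The Ifit family of interferon-stimulated genes gave 3 of the 27 genes that LPS raised and LPS/IFNγ left above control. *Ifit3*, an interferon-induced protein that takes part in sensing foreign RNA, had 7.31, 10.3 and 14.3 CPM in PBS, 14.3, 12.1 and 7.2 CPM in frHMGB1, 941, 837 and 858 CPM in dsHMGB1, 1379, 1373 and 1283 CPM in LPS and 217, 229 and 276 CPM in LPS/IFNγ. Its near copy *Ifit3b* had 1.28, 1.74 and 1.76 CPM in PBS, 2.28, 2.02 and 0.994 CPM in frHMGB1, 172, 154 and 147 CPM in dsHMGB1, 207, 198 and 175 CPM in LPS and 26.4, 26.3 and 32.6 CPM in LPS/IFNγ. *Ifit1bl1*, of the same family, had 1.66, 2.33 and 0.782 CPM in PBS, 3.36, 3.59 and 2.2 CPM in frHMGB1, 104, 111 and 98.8 CPM in dsHMGB1, 160.5, 159 and 138 CPM in LPS and 30.2, 30.5 and 39.4 CPM in LPS/IFNγ. In all 3 genes every LPS library was above every dsHMGB1 library, and every dsHMGB1 library above every LPS/IFNγ library. Over PBS, *Ifit3* rose by 6.98 ± 0.31 (log2, SE, adjusted p = 2.89e-10) in LPS and by 4.50 ± 0.27 (log2, SE, adjusted p = 7.56e-09) in LPS/IFNγ, where the error is the standard error (SE) on the log2 scale. *Ifit3b* rose by 6.92 ± 0.28 (log2, SE, adjusted p = 1.29e-10) in LPS and 4.16 ± 0.25 (log2, SE, adjusted p = 6.78e-09) in LPS/IFNγ. For *Ifit1bl1* the rise was 6.56 ± 0.34 (log2, SE, adjusted p = 1.62e-09) in LPS and 4.36 ± 0.31 (log2, SE, adjusted p = 3.81e-08) in LPS/IFNγ. The LPS mean was 5.59 times the LPS/IFNγ mean for *Ifit3*, 6.79 times for *Ifit3b* and 4.57 times for *Ifit1bl1*. *Ifit3* and *Ifit3b* are identical over 97.8% of aligned transcript bases, so the split of reads between them is uncertain.

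The 3 genes lie within one cluster on chromosome 19 (GRCm38), *Ifit3* at chr19:34583531-34588731, *Ifit1bl1* at chr19:34592891-34601956 on the minus strand and *Ifit3b* at chr19:34607970-34613401. The neighbours *Ifit2* (chr19:34550694-34576419) and *Ifit1* (chr19:34640871-34650009) were looked up after the values of the 53 genes had been seen, as was *Ifit1bl2* (chr19:34617049-34640743, minus strand). *Ifit1* had a mean of 3612 CPM in LPS and 1104 in LPS/IFNγ, a ratio of 3.27 that lies outside the rule. *Ifit2* had 5645 and 4607 CPM, and its LPS libraries still did not overlap with its LPS/IFNγ libraries. *Ifit1bl2* was low, with 1.72 CPM in LPS and 1.23 in LPS/IFNγ, a ratio of 1.40. Other interferon-stimulated genes looked up in the same way also differed in size of change. *Rsad2* had 11472 CPM in LPS and 4249 in LPS/IFNγ, and *Isg15* had 1916 and 1492 CPM. The interferon beta gene *Ifnb1* went the other way, with 29.6 CPM in LPS and 53.9 in LPS/IFNγ. *Isg20*, an exonuclease induced by interferon and one of the 53, had 4.12 times the LPS/IFNγ mean in LPS.

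**Figure D3:**
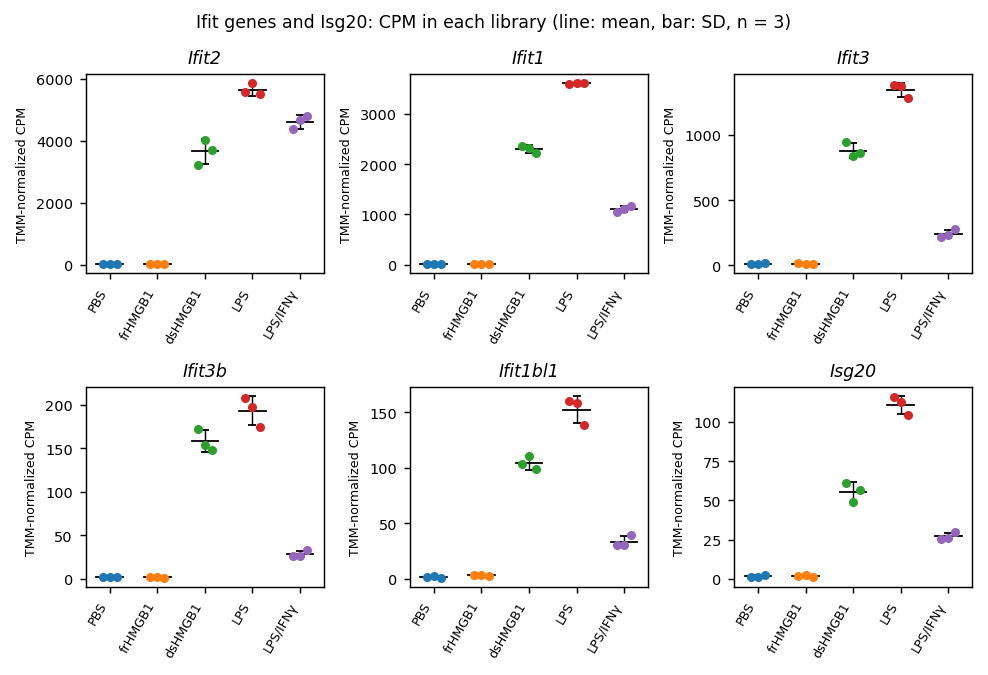
CPM in each library (points) for *Ifit2*, *Ifit1*, *Ifit3*, *Ifit3b*, *Ifit1bl1* and *Isg20* by condition, each panel with its own axis from near 0, the mean as a line and the SD as a bar (n = 3). LPS/IFNγ lay near LPS for *Ifit2* (4607 against 5645 CPM) and far below it for *Ifit3*, *Ifit3b* and *Ifit1bl1*.

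Sequence upstream of these genes was read from RefSeq promoters (GRCm38.p6, 250 bases before to 50 after the transcription start), which were matched for 42 of the 53 genes. The letters GAAA, 2 bases of any kind and GAAA again, the core of the interferon-stimulated response element (ISRE) bound by factors of the IRF family, were found on either strand in 7 of these 42 (16.7%) and in 341 of 10248 promoters of protein-coding genes tested (3.3%). The 7 were *Ifit3*, *Ifit3b*, *Ifit1bl1*, *Apol9b*, *Saa3*, *Tnfrsf1b* and *Pilrb1*. The 250 bases before the start are shown for 5 of them, 5′ to 3′ on the gene's strand with the match in capitals, because they include the genes with the highest levels; capitals reading TTTC first are matches on the opposite strand.
Ifit3 (chr19:34583279-34583528, plus strand): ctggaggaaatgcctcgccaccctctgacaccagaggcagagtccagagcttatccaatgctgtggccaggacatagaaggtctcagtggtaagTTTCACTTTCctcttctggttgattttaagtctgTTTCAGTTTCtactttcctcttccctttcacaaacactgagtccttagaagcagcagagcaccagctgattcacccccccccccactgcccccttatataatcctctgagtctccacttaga
Ifit3b (chr19:34607707-34607956, plus strand): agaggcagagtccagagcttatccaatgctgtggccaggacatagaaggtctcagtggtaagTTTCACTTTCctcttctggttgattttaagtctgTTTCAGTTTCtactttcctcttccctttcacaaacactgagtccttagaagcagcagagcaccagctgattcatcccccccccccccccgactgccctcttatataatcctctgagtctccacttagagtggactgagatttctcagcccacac
Ifit1bl1 (chr19:34601969-34602218, minus strand): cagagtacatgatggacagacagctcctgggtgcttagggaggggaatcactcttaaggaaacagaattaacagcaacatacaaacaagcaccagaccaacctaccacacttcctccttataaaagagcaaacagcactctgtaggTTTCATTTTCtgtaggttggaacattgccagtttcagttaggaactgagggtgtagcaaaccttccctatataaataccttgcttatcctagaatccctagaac
Saa3 (chr7:46715677-46715926, minus strand): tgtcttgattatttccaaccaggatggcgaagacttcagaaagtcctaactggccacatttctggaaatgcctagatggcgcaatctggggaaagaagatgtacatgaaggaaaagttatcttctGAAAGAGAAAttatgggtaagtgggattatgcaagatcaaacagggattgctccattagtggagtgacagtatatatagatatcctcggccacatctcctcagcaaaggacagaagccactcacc
Tnfrsf1b (chr4:145246871-145247120, minus strand): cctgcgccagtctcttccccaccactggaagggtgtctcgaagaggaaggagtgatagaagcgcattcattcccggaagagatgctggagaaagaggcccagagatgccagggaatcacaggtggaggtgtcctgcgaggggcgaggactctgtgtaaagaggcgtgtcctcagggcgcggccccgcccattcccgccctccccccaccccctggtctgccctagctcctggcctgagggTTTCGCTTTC
*Ifit3* and *Ifit3b* carry the same pair of matches in nearly the same flanking sequence, while *Saa3*, *Tnfrsf1b* and *Ifit1bl1* carry 1 each.

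The 27 genes also held secreted proteins of the acute-phase and growth factor kind. *Saa3*, a serum amyloid A protein, had 0.905, 0.816 and 3.67 CPM in PBS, 18.8, 8.22 and 0.879 CPM in frHMGB1, 557, 359 and 404 CPM in dsHMGB1, 728, 651 and 761 CPM in LPS and 65.9, 59 and 59.4 CPM in LPS/IFNγ. The LPS mean was 11.6 times the LPS/IFNγ mean, and yet LPS/IFNγ stayed 5.14 ± 0.85 (log2, SE, adjusted p = 0.000139) above PBS, a difference that was 6.15 without PBS replicate 3. *Lcn2*, the siderophore-binding lipocalin, had 0, 0.0227 and 0 CPM in PBS, 0.264, 0.128 and 0.0573 CPM in frHMGB1, 3.39, 2.76 and 3.92 CPM in dsHMGB1, 8.96, 8.81 and 10.0 CPM in LPS and 0.908, 0.692 and 0.708 CPM in LPS/IFNγ. Its PBS libraries held 2 counts in all, and the LPS to PBS ratio was 1227 with a 95% interval of 288 to 8631 that covers counting error only. The LPS mean of *Lcn2* was 12.0 times that of LPS/IFNγ. Neutrophil genes of the marker list were at or near 0, apart from *Csf3r* and *S100a8*, and *Csf3r* had 124 CPM in LPS and 80.3 in LPS/IFNγ.

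*Csf2*, which encodes GM-CSF, had the largest ratio of all 53. It had 0, 0 and 0 CPM in PBS, 0, 0 and 0 CPM in frHMGB1, 0.572, 0.398 and 0.365 CPM in dsHMGB1, 9.68, 11.3 and 11.8 CPM in LPS and 0.526, 0.455 and 0.63 CPM in LPS/IFNγ. With 0 counts in PBS, LPS was at least 822-fold higher, dsHMGB1 at least 33.5-fold and LPS/IFNγ at least 40.4-fold, each against 3 counts over the PBS group. The LPS mean was 20.3 times the LPS/IFNγ mean, and dsHMGB1 reached only 4.07% of the LPS mean, and no library outside the LPS condition exceeded 0.63 CPM. *Gdf15*, a stress-induced member of the TGF-β family, had 8.97, 6.58 and 13.4 CPM in PBS, 10.3, 10.0 and 9.52 CPM in frHMGB1, 127, 81.4 and 95.9 CPM in dsHMGB1, 161, 154 and 175 CPM in LPS and 19.2, 20.6 and 20.6 CPM in LPS/IFNγ. *Gdf15* rose by 4.08 ± 0.24 (log2, SE, adjusted p = 4.83e-09) in LPS and by 1.06 ± 0.21 (log2, SE, adjusted p = 0.00072) in LPS/IFNγ, where its libraries lay above all PBS libraries. *Csf2* and *Gdf15* were the only genes of the 53 on the growth factor list.

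Enzymes that make small mediators were also among them. *Ptges*, the inducible synthase of prostaglandin E2, had 4.42, 4.28 and 5.0 CPM in PBS, 4.4, 4.7 and 4.95 CPM in frHMGB1, 44.4, 37.3 and 44.7 CPM in dsHMGB1, 44, 37 and 40.6 CPM in LPS and 8.99, 9.25 and 9.76 CPM in LPS/IFNγ. Its dsHMGB1 and LPS libraries overlapped, and LPS/IFNγ was 1.03 ± 0.11 (log2, SE, adjusted p = 2.63e-06) above PBS. *Hdc*, histidine decarboxylase, which makes histamine, had 7 counts in PBS and then 27, 21.2 and 24.2 CPM in dsHMGB1, 137, 139.9 and 139.6 CPM in LPS and 34, 33.6 and 33 CPM in LPS/IFNγ. The dsHMGB1 libraries of *Hdc* lay below those of LPS/IFNγ, unlike most of the 53. *Ptgs2*, the cyclooxygenase that works upstream of *Ptges* and that was looked up afterwards, had 4884 CPM in LPS and 2844 in LPS/IFNγ.

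Receptors and membrane proteins included *Fpr1*, the receptor for bacterial formyl peptides, with 0, 0.0453 and 0 CPM in PBS, 0.189, 0.219 and 0.382 CPM in frHMGB1, 15.8, 16.8 and 16.9 CPM in dsHMGB1, 14.7, 11.7 and 15.1 CPM in LPS and 1.89, 2.13 and 2.06 CPM in LPS/IFNγ. dsHMGB1 libraries of *Fpr1* were all above those of LPS. Caveolin, *Cav1*, had 2.6, 2.06 and 0.782 CPM in PBS, 2.04, 2.22 and 1.36 CPM in frHMGB1, 74.4, 71.8 and 69.3 CPM in dsHMGB1, 276, 263 and 254 CPM in LPS and 51.9, 54 and 52.1 CPM in LPS/IFNγ. In *Cav1* the dsHMGB1 mean was 27.2% of LPS and the LPS/IFNγ mean 19.9%. The nucleoside transporter *Slc28a2* had 7.72, 8.25 and 3.54 CPM in PBS, 10.1, 9.88 and 9.02 CPM in frHMGB1, 45.7, 54.1 and 49.5 CPM in dsHMGB1, 188, 186 and 186 CPM in LPS and 45.3, 46.2 and 45.3 CPM in LPS/IFNγ, and its dsHMGB1 and LPS/IFNγ libraries overlapped. *Slc28a2* shares 95.9% of aligned bases with *Gm14085*, so its counts are uncertain. *Slamf9*, a SLAM family receptor, had 7.61, 6.76 and 14.3 CPM in PBS, 7.19, 9.64 and 8.06 CPM in frHMGB1, 86.3, 68.5 and 76.8 CPM in dsHMGB1, 108, 103 and 106 CPM in LPS and 26.8, 24.6 and 26.6 CPM in LPS/IFNγ and lay just inside the rule at a ratio of 4.06. *Shisa3*, a protein that holds back Wnt and FGF receptors, went from 3 counts in PBS to 29, 29.1 and 26.2 CPM in dsHMGB1, 56.4, 56.1 and 56 CPM in LPS and 4.03, 4.17 and 3.65 CPM in LPS/IFNγ. For *Shisa3* the LPS to PBS ratio was 3343 (95% interval 1445 to 20490, counting error only), and LPS was 14.2 times LPS/IFNγ. Without PBS replicate 3 the fitted log2 fold change of *Shisa3* in LPS was 12.85, compared with 11.82 with it. The gene overlaps *Atp8a1*, on the opposite strand, over 5413 bp, and whether the counting used strand is not given in the sources used here.

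The rest of the group was of mixed kinds. *Rasgrp1*, an activator of Ras, had 10 counts in PBS and then 8.8, 14.5 and 11 CPM in dsHMGB1, 9.81, 10.7 and 9.76 CPM in LPS and 1.07, 0.51 and 0.582 CPM in LPS/IFNγ. Its dsHMGB1 and LPS libraries overlapped, and LPS was 14 times LPS/IFNγ. *Ccne1*, cyclin E1, had 3.66, 3.92 and 5.1 CPM in PBS, 3.45, 4.72 and 2.75 CPM in frHMGB1, 15.4, 12.6 and 14 CPM in dsHMGB1, 34.9, 35.3 and 37.2 CPM in LPS and 7.79, 7.63 and 8.36 CPM in LPS/IFNγ. *Ccne1* was 3.09 ± 0.19 (log2, SE, adjusted p = 7.73e-09) above PBS in LPS and 0.91 ± 0.18 (log2, SE, adjusted p = 0.000545) in LPS/IFNγ, and it was the only one of the 53 on the cell cycle list. *Rnf225*, a RING finger protein, had 0.058, 0.068 and 0.0391 CPM in PBS, 0, 0.0729 and 0 CPM in frHMGB1, 1.07, 1.03 and 0.716 CPM in dsHMGB1, 3.29, 3.24 and 2.48 CPM in LPS and 0.49, 0.419 and 0.535 CPM in LPS/IFNγ. *Apol9b*, an apolipoprotein L gene that shares 98.4% of aligned bases with *Apol9a* and is therefore counted with uncertainty, had 0, 0.0227 and 0.117 CPM in PBS, 0.0755, 0 and 0.115 CPM in frHMGB1, 2.91, 2.13 and 2.82 CPM in dsHMGB1, 3.2, 3.56 and 4.6 CPM in LPS and 0.835, 0.893 and 1.09 CPM in LPS/IFNγ. The adenosine receptor *Adora2b*, adrenomedullin (*Adm*), the cytokine signalling inhibitor *Socs2*, the adhesion protein *Clmp*, the activating receptor *Pilrb1*, the secretory peptide precursor *Vgf* and the gene *1700047I17Rik2* had ratios of LPS to LPS/IFNγ between 4.07 and 5.34. *1700047I17Rik2* is identical to *Fam177a* over its whole transcript, and its dsHMGB1 libraries had 8.35, 0.963 and 0.862 CPM.

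In 10 genes LPS/IFNγ was not told apart from the control. *Pik3r6*, a regulatory subunit of PI3Kγ, had 14.9, 15.3 and 9.05 CPM in PBS, 14.3, 16.2 and 16.1 CPM in frHMGB1, 53.3, 60.2 and 59 CPM in dsHMGB1, 60.9, 59.1 and 59.5 CPM in LPS and 13.5, 12.8 and 14.4 CPM in LPS/IFNγ. LPS was 2.19 ± 0.16 (log2, SE, adjusted p = 7.07e-08) above PBS and LPS/IFNγ differed from PBS by 0.05 ± 0.16 (log2, SE, adjusted p = 0.79). *Vnn3*, a vanin of the pantetheinase family, had 1.89, 1.96 and 2.17 CPM in PBS, 2.3, 1.51 and 2.04 CPM in frHMGB1, 17.5, 15.7 and 15.6 CPM in dsHMGB1, 19.5, 19 and 16.5 CPM in LPS and 2.14, 2.46 and 2.52 CPM in LPS/IFNγ. LPS raised *Vnn3* by 3.19 ± 0.16 (log2, SE, adjusted p = 8.69e-10), and the difference of LPS/IFNγ from PBS was 0.24 ± 0.15 (log2, SE, adjusted p = 0.17). The zinc finger gene *Zfp658* had 1.42, 1.47 and 1.27 CPM in PBS, 1.98, 1.48 and 1.68 CPM in frHMGB1, 4.35, 3.89 and 4.72 CPM in dsHMGB1, 13.9, 12.2 and 12.8 CPM in LPS and 1.16, 0.856 and 1.27 CPM in LPS/IFNγ, so that LPS was 11.8 times LPS/IFNγ and dsHMGB1 lay between them. *Zfp658* stood 3.22 ± 0.17 (log2, SE, adjusted p = 2.21e-09) above PBS in LPS and at -0.34 ± 0.17 (log2, SE, adjusted p = 0.1) in LPS/IFNγ.

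*Rtn2*, a reticulon that shapes the endoplasmic reticulum, had 0.917, 0.646 and 1.37 CPM in PBS, 1.28, 1.02 and 1.3 CPM in frHMGB1, 9.05, 8.28 and 9.03 CPM in dsHMGB1, 7.02, 6.47 and 6.09 CPM in LPS and 1.36, 1.22 and 1.5 CPM in LPS/IFNγ. The dsHMGB1 libraries of *Rtn2* were all above those of LPS. *Glrp1*, a glutamine-repeat protein, had 0.511, 0.442 and 0.293 CPM in PBS, 0.547, 0.583 and 0.401 CPM in frHMGB1, 3.11, 3.23 and 2.88 CPM in dsHMGB1, 3.53, 3.34 and 3.27 CPM in LPS and 0.381, 0.82 and 0.787 CPM in LPS/IFNγ. Neither was called in LPS/IFNγ, with 0.50 ± 0.22 (log2, SE, adjusted p = 0.067) for *Rtn2* and 0.65 ± 0.28 (log2, SE, adjusted p = 0.06) for *Glrp1*, but *Rtn2* passed without PBS replicate 3 (0.79) and *Glrp1* without PBS replicate 1 (0.825) or LPS/IFNγ replicate 1 (0.917). *Gm6793*, a near copy of *Hnrnpa3* (98.3% of aligned bases), had 0.464, 1.06 and 0.86 CPM in PBS, 0.302, 5.31 and 6.32 CPM in frHMGB1, 7.33, 7.02 and 7.04 CPM in dsHMGB1, 8.65, 9.86 and 8.45 CPM in LPS and 2.36, 0.965 and 1.72 CPM in LPS/IFNγ, and its frHMGB1 libraries did not form 1 level. *Gm6793* was called higher in LPS/IFNγ without frHMGB1 replicate 1 (1.08). The activating receptor *Pira2*, the X-linked gene *Gm21887*, the serotonin transporter *Slc6a4* and the inactive phospholipase C-like gene *Plcl1* had LPS means of 2.22 to 3.20 CPM. *Plcl1* was called lower in LPS/IFNγ without PBS replicate 3 (-0.75) or LPS/IFNγ replicate 1 (-0.84), and *Gm21887* higher without PBS replicate 3 (3.02) or frHMGB1 replicate 1 (1.81). *Pira2* and *Gm21887* have near-identical copies in the genome, at 99.5% and 100% of aligned bases.

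The 9 genes that LPS raised and LPS/IFNγ took below control included the most abundant of the 53. *Tnfrsf1b*, the second TNF receptor, had the highest level per length in LPS, at 1008 RPKM (the CPM per kilobase of exon), ahead of *Ifit3* at 771 RPKM. It had 996, 978 and 788 CPM in PBS, 1039, 975 and 1008 CPM in frHMGB1, 3251, 3193 and 3295 CPM in dsHMGB1, 3674, 3866 and 4003 CPM in LPS and 731, 773 and 759 CPM in LPS/IFNγ. LPS was 2.06 ± 0.10 (log2, SE, adjusted p = 4.73e-10) above PBS, dsHMGB1 1.82 ± 0.09 (log2, SE, adjusted p = 2.77e-09), and LPS/IFNγ differed from PBS by -0.29 ± 0.09 (log2, SE, adjusted p = 0.016). That difference was not called without PBS replicate 1 (-0.22) or without PBS replicate 2 (-0.24). It was also not called with no filter on low counts (-0.204) or with pairs of groups fitted alone (-0.217). Without PBS replicate 3 it was called, at -0.40 ± 0.05 (log2, SE, adjusted p = 1.22e-06). The LPS mean was 5.10 times the LPS/IFNγ mean. *Tnfrsf1a*, the other TNF receptor, was looked up afterwards and had 142 CPM in PBS, 450 in LPS and 647 in LPS/IFNγ.

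*Gramd1b*, a sterol carrier between membranes, had 54.7, 56.8 and 35.7 CPM in PBS, 47.2, 47.9 and 47.9 CPM in frHMGB1, 133, 152 and 154 CPM in dsHMGB1, 174, 173 and 187 CPM in LPS and 34.4, 37.5 and 36.5 CPM in LPS/IFNγ. Its LPS/IFNγ libraries overlapped with PBS replicate 3, and their difference from PBS was -0.44 ± 0.14 (log2, SE, adjusted p = 0.015). That difference was not called without PBS replicate 1, PBS replicate 2 or LPS/IFNγ replicate 1 (-0.32 to -0.42). The call was also lost with no filter on low counts (-0.359) or with pairs of groups fitted alone (-0.367). Without PBS replicate 3 the difference was called, at -0.64 ± 0.07 (log2, SE, adjusted p = 1.56e-07). *Lrrc25*, a leucine-rich repeat receptor of myeloid cells, had 84, 75.3 and 111 CPM in PBS, 103, 101 and 95.8 CPM in frHMGB1, 187, 157 and 171 CPM in dsHMGB1, 167, 166 and 177 CPM in LPS and 39.3, 34.8 and 37.4 CPM in LPS/IFNγ. *Tmem229b*, a membrane protein, had 52.9, 53.9 and 35.1 CPM in PBS, 56.7, 51.6 and 54 CPM in frHMGB1, 121, 127 and 123 CPM in dsHMGB1, 111, 116 and 114 CPM in LPS and 27.6, 27.4 and 29.4 CPM in LPS/IFNγ. In *Lrrc25* and *Tmem229b* all LPS/IFNγ libraries lay below all PBS libraries, by -1.28 ± 0.13 (log2, SE, adjusted p = 1.35e-06) and -0.75 ± 0.13 (log2, SE, adjusted p = 0.000248).

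Regulators of transcription were found here too. *Prdm1*, which encodes the repressor Blimp-1, had 44.9, 52.4 and 18.3 CPM in PBS, 47.5, 41.6 and 45.3 CPM in frHMGB1, 59.7, 78 and 69.1 CPM in dsHMGB1, 62, 64.9 and 66 CPM in LPS and 12.3, 12.9 and 11.8 CPM in LPS/IFNγ. *Prdm1* was 0.74 ± 0.27 (log2, SE, adjusted p = 0.028) above PBS in LPS, a call that was lost without LPS replicate 3 (0.76), and -1.64 ± 0.27 (log2, SE, adjusted p = 0.000151) in LPS/IFNγ, whose libraries lay below all PBS libraries. Without PBS replicate 3, its lowest PBS library, *Prdm1* stood at 0.44 ± 0.10 (log2, SE, adjusted p = 0.000592) in LPS and -1.99 ± 0.10 (log2, SE, adjusted p = 2.81e-12) in LPS/IFNγ. The immediate early gene *Ier2* had 22, 18.4 and 48.5 CPM in PBS, 24.4, 24.3 and 22.8 CPM in frHMGB1, 30.0, 21.3 and 23 CPM in dsHMGB1, 67.7, 70.6 and 70.6 CPM in LPS and 16.5, 16.7 and 17.7 CPM in LPS/IFNγ. For *Ier2*, LPS was 1.23 ± 0.27 (log2, SE, adjusted p = 0.0015) above PBS and LPS/IFNγ -0.80 ± 0.27 (log2, SE, adjusted p = 0.021), and dsHMGB1 was not called at -0.26 ± 0.27 (log2, SE, adjusted p = 0.45). Its PBS level rests on replicate 3, without which LPS stood at 1.82, LPS/IFNγ at -0.26 ± 0.11 (log2, SE, adjusted p = 0.049) and dsHMGB1 at 0.30 ± 0.11 (log2, SE, adjusted p = 0.027). The zinc finger gene *Zfp324* had 6.57, 6.3 and 2.66 CPM in PBS, 6.06, 7.0 and 7.78 CPM in frHMGB1, 9.1, 10.7 and 10.4 CPM in dsHMGB1, 9.22, 9.66 and 10.1 CPM in LPS and 1.67, 2.0 and 2.09 CPM in LPS/IFNγ.

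*Samsn1*, an adaptor protein of immune cells, fell furthest below the control among the 9. It had 8.43, 9.3 and 6.04 CPM in PBS, 12.3, 10.0 and 12.4 CPM in frHMGB1, 14.3, 15.4 and 16.2 CPM in dsHMGB1, 20.9, 18.8 and 21.7 CPM in LPS and 1.38, 2.11 and 1.95 CPM in LPS/IFNγ. LPS raised *Samsn1* by 1.37 ± 0.18 (log2, SE, adjusted p = 1.62e-05), and LPS/IFNγ lay at -2.13 ± 0.19 (log2, SE, adjusted p = 3.4e-07), so that the LPS mean was 11.3 times the LPS/IFNγ mean. The dipeptidase gene *Dpep3* had 1.87, 0.884 and 2.64 CPM in PBS, 1.74, 2.55 and 1.85 CPM in frHMGB1, 6.73, 4.74 and 4.89 CPM in dsHMGB1, 7.8, 5.12 and 4.89 CPM in LPS and 0.835, 0.492 and 0.803 CPM in LPS/IFNγ, with a ratio of 8.36 between LPS and LPS/IFNγ.

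A pair of genes had no call in LPS and were lower in LPS/IFNγ. *Frmd4b*, a FERM domain scaffold, had 80.9, 88 and 37.2 CPM in PBS, 91.3, 78.5 and 87.8 CPM in frHMGB1, 60.9, 79.8 and 78.7 CPM in dsHMGB1, 71.5, 76.5 and 81.8 CPM in LPS and 16.6, 16.6 and 16.4 CPM in LPS/IFNγ. LPS differed from PBS by 0.16 ± 0.23 (log2, SE, adjusted p = 0.58), dsHMGB1 by 0.09 ± 0.23 (log2, SE, adjusted p = 0.77) and LPS/IFNγ by -2.05 ± 0.24 (log2, SE, adjusted p = 6.47e-06), and all LPS/IFNγ libraries lay below all others. *Tut4*, which adds uridines to RNA ends, had 51.6, 52.7 and 7.99 CPM in PBS, 43.5, 38.4 and 41.8 CPM in frHMGB1, 21.5, 28.2 and 25.2 CPM in dsHMGB1, 33.9, 33.4 and 31.8 CPM in LPS and 7.19, 8.03 and 8.66 CPM in LPS/IFNγ. PBS replicate 3 lay at the level of the LPS/IFNγ libraries of *Tut4*, apart from the other PBS libraries. With it LPS differed from PBS by -0.18 ± 0.44 (log2, SE, adjusted p = 0.74) and LPS/IFNγ by -2.23 ± 0.47 (log2, SE, adjusted p = 0.000973); without it the values were -0.62 ± 0.09 (log2, SE, adjusted p = 1.37e-05) and -2.72 ± 0.10 (log2, SE, adjusted p = 3.26e-14), which moves *Tut4* to the genes lowered by LPS as well.

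The 5 genes already lower in LPS encode regulators of transcription or growth arrest, and in all 5 every LPS/IFNγ library lay below every LPS library, as the rule required of their means. *Id3*, an inhibitor of helix-loop-helix factors, had 48.7, 40.3 and 94.9 CPM in PBS, 63, 62.1 and 64.1 CPM in frHMGB1, 25.8, 18.8 and 20.5 CPM in dsHMGB1, 21.4, 21 and 22.1 CPM in LPS and 2.34, 2.2 and 3.02 CPM in LPS/IFNγ. *Gadd45a*, a stress and growth arrest gene, had 58.3, 56.3 and 116 CPM in PBS, 52.3, 49.4 and 53.4 CPM in frHMGB1, 9.34, 6.79 and 8.34 CPM in dsHMGB1, 9.31, 10.7 and 10.9 CPM in LPS and 1.8, 1.89 and 1.87 CPM in LPS/IFNγ. Its relative *Gadd45g* had 32.7, 27.8 and 125 CPM in PBS, 40.9, 42.2 and 42.6 CPM in frHMGB1, 20.0, 14.5 and 16.9 CPM in dsHMGB1, 18.3, 17.6 and 16.3 CPM in LPS and 2.9, 2.46 and 2.19 CPM in LPS/IFNγ. In each of these 3 genes all PBS libraries lay above all LPS and dsHMGB1 libraries, and these above all LPS/IFNγ libraries.

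Over PBS, *Id3* changed by -1.51 ± 0.25 (log2, SE, adjusted p = 0.00017) in LPS and -4.60 ± 0.29 (log2, SE, adjusted p = 1.18e-08) in LPS/IFNγ. The changes of *Gadd45a* were -2.90 ± 0.24 (log2, SE, adjusted p = 2.04e-07) and -5.37 ± 0.27 (log2, SE, adjusted p = 1.2e-09), and those of *Gadd45g* were -1.83 ± 0.43 (log2, SE, adjusted p = 0.0022) and -4.62 ± 0.49 (log2, SE, adjusted p = 2.12e-06). PBS replicate 3 was the highest PBS library for these 3, and without it the log2 fold changes in LPS were -1.01 for *Id3*, -2.44 for *Gadd45a* and -0.76 for *Gadd45g*, still called lower. PBS exceeded LPS/IFNγ 24.3 times for *Id3*, 41.4 times for *Gadd45a* and 24.6 times for *Gadd45g*. These folds were smaller without PBS replicate 3, where the log2 fold changes in LPS/IFNγ were -4.14 for *Id3*, -4.96 for *Gadd45a* and -3.60 for *Gadd45g*. The third family member, *Gadd45b*, was looked up afterwards and had 96.6 CPM in PBS, 835 in LPS and 829 in LPS/IFNγ. *Id2*, a relative of *Id3*, had 134 CPM in PBS, 215 in LPS and 226 in LPS/IFNγ.

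*Klf2*, a zinc finger factor that restrains inflammatory genes in myeloid cells, had 8.77, 8.38 and 14.8 CPM in PBS, 9.87, 9.75 and 9.5 CPM in frHMGB1, 6.59, 4.99 and 5.22 CPM in dsHMGB1, 6.32, 5.52 and 6.07 CPM in LPS and 0.871, 1.0 and 0.85 CPM in LPS/IFNγ. *Irf2bpl*, a transcription regulator, had 37.7, 37.3 and 12 CPM in PBS, 41.5, 41.3 and 40.5 CPM in frHMGB1, 5.65, 6.62 and 7.42 CPM in dsHMGB1, 9.02, 8.98 and 10.6 CPM in LPS and 2.01, 2.19 and 1.42 CPM in LPS/IFNγ. PBS replicate 3 was the lowest PBS library for *Irf2bpl* and the highest for *Klf2*. *Klf2* changed by -0.83 ± 0.20 (log2, SE, adjusted p = 0.0023) in LPS and -3.55 ± 0.22 (log2, SE, adjusted p = 1.01e-08) in LPS/IFNγ, and *Irf2bpl* by -1.61 ± 0.32 (log2, SE, adjusted p = 0.00072) and -3.96 ± 0.36 (log2, SE, adjusted p = 4.77e-07). Without PBS replicate 3 the changes in LPS were -0.48 for *Klf2* and -1.94 for *Irf2bpl*, both still called.

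**Figure D4:**
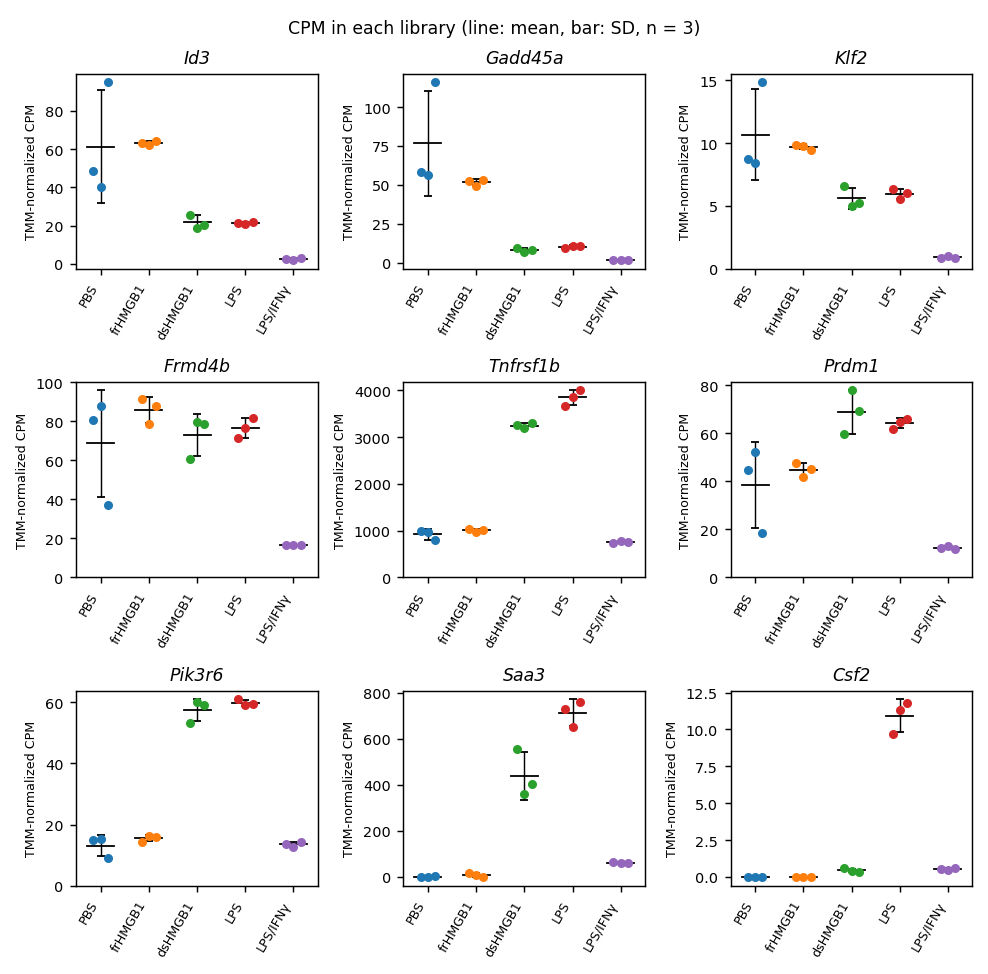
CPM in each library (points) for 9 genes by condition, with the mean as a line and the SD as a bar (n = 3) and each panel with its own linear axis. *Id3*, *Gadd45a* and *Klf2* fall from PBS to LPS and again to LPS/IFNγ, *Frmd4b* is lower in LPS/IFNγ, *Tnfrsf1b* and *Prdm1* rise in LPS and lie below PBS in LPS/IFNγ, *Pik3r6* in LPS/IFNγ lies within the range of PBS, and *Saa3* and *Csf2* keep a part of the rise.

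dsHMGB1, the other TLR4 ligand, moved most of these genes as LPS did, without IFNγ. Against PBS, 44 of the 53 were higher in dsHMGB1, 5 lower and 4 not called, where 23.3% of all genes were higher and 24.2% lower. The 5 lower genes were those also lower in LPS. Without PBS replicate 3, 45 of the 53 were higher and 6 lower. *Tut4* was then called lower, at -1.05 ± 0.09 (log2, SE, adjusted p = 2.14e-08). With PBS replicate 3 the difference of *Tut4* was -0.58 ± 0.45 (log2, SE, adjusted p = 0.3). Calls of *Gm21887* were lost in most fits that left out 1 library (2.09 to 2.63 on the log2 scale), those of *Pira2* without dsHMGB1 replicate 2 or 3 (1.56 and 1.64) and that of *Prdm1* without dsHMGB1 replicate 2 (0.74). The median log2 fold change was 2.75, and -0.11 over all genes. The rule had capped dsHMGB1 at 1.5 times LPS and set no lower limit. As a description, the dsHMGB1 mean was below the LPS mean in 43 genes and below 50% of it in 17, with a median ratio of 0.69 and a range from 0.041 (*Csf2*) to 1.35 (*Rtn2*).

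Compared with LPS/IFNγ, dsHMGB1 was called higher in 42 of the 53 genes, lower in 1 (2 without PBS replicate 3) and neither in 10, beside 16.5% higher and 16.7% lower among all genes. This comparison uses the LPS/IFNγ libraries that chose the genes as low ones. In 46 genes every dsHMGB1 library was above every LPS/IFNγ library. The largest differences among genes with the highest LPS level or largest ratio in their group were 3.99 ± 0.46 (log2, SE, adjusted p = 1.8e-05) for *Rasgrp1*, 3.10 ± 0.28 (log2, SE, adjusted p = 1.48e-06) for *Id3* and 3.07 ± 0.19 (log2, SE, adjusted p = 5.71e-08) for *Samsn1*. *Tnfrsf1b* differed by 2.10 ± 0.10 (log2, SE, adjusted p = 3.2e-09) and *Prdm1* by 2.48 ± 0.28 (log2, SE, adjusted p = 1.38e-05). In *Cav1* (0.45 ± 0.27 (log2, SE, adjusted p = 0.24)), *Slc28a2* (0.12 ± 0.22 (log2, SE, adjusted p = 0.73)) and *Ier2* (0.54 ± 0.27 (log2, SE, adjusted p = 0.15)) the difference was not called.

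The dsHMGB1 mean was below the LPS/IFNγ mean in 4 genes, among them *Hdc*, *Vgf* and *Csf2*. *Hdc* differed by -0.47 ± 0.20 (log2, SE, adjusted p = 0.095) and *Vgf* by -0.70 ± 0.53 (log2, SE, adjusted p = 0.36), which did not pass, and *Csf2* had overlapping libraries. In these 3 genes dsHMGB1 reached 4.07% to 17.4% of the LPS mean.

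**Figure D5:**
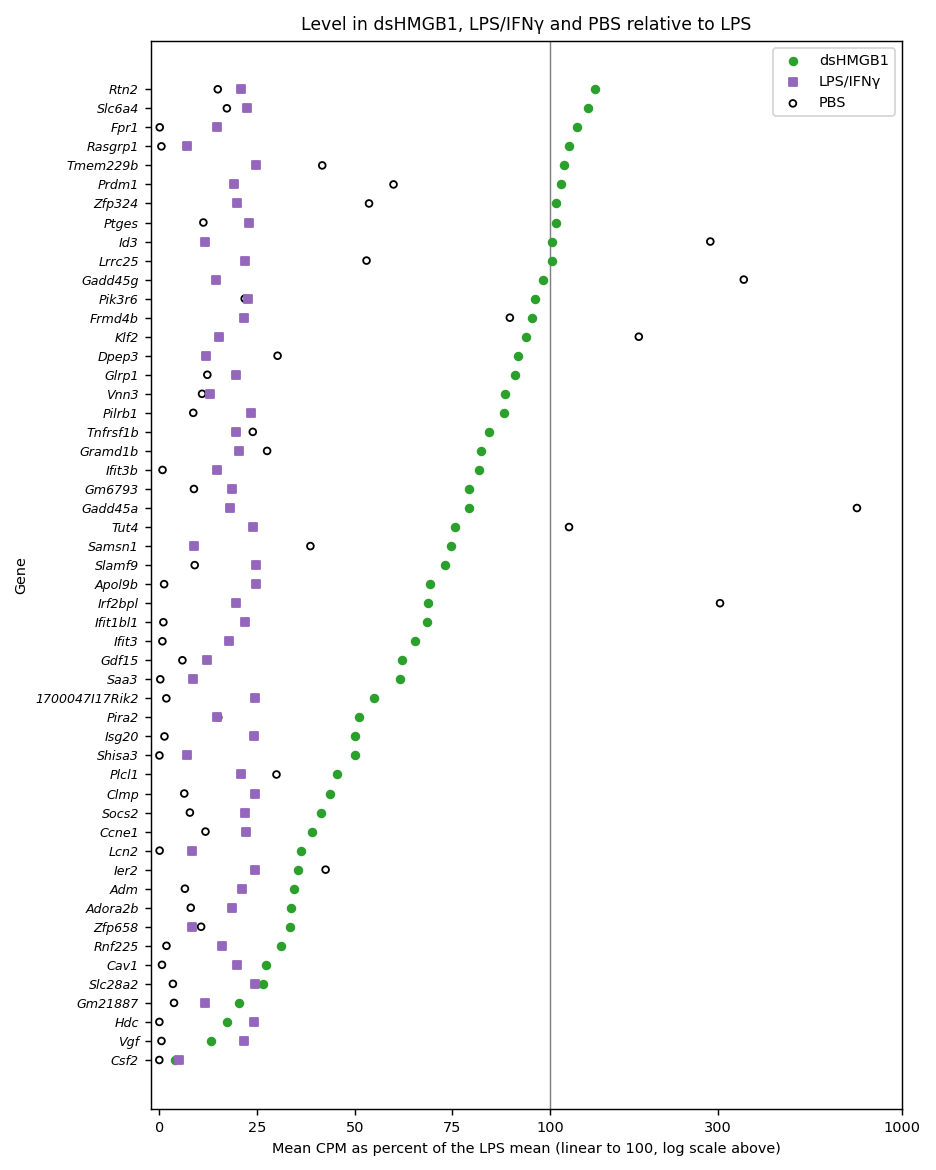
Mean CPM in dsHMGB1 (circles), LPS/IFNγ (squares) and PBS (open circles) as percent of the LPS mean for 52 of the 53 genes, ordered by the dsHMGB1 value, on an axis that is linear to 100 and logarithmic above. LPS/IFNγ lies at or below 24.8% by the rule, whereas dsHMGB1 runs from 4.07% for *Csf2* to 135% for *Rtn2*.

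The rule used neither the frHMGB1 nor the PBS libraries. Against PBS, 3 of the 53 genes were called higher and 0 lower by edgeR, beside 1.31% higher and 5.69% lower among all genes. At an unadjusted p below 0.05 these counts were 11 and 2, and DESeq2 gave 9 and 0. The median log2 fold change was 0.22, and 0.00 over all genes. The 3 genes were *Fpr1*, *Lcn2* and *Pira2*. For *Fpr1*, 42 counts in frHMGB1 stood against 4 in PBS, a ratio of 14.8 (95% interval 5.37 to 56.8, counting error only), and for *Lcn2* 24 counts stood against 2, a ratio of 16.9 (4.20 to 147.6). *Pira2* had 0.662, 0.634 and 0.117 CPM in PBS and 0.585, 2.86 and 3.96 CPM in frHMGB1, so that its libraries overlapped. *Saa3* had 18.8, 8.22 and 0.879 CPM in frHMGB1, a spread that reached down to the PBS level, and was not called at 2.42 ± 0.77 (log2, SE, adjusted p = 0.089).

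Without PBS replicate 3, 15 of the 53 genes were higher in frHMGB1 and 2 lower, where 8.41% and 9.09% of all genes were. *Saa3* then differed by 3.44 ± 0.71 (log2, SE, adjusted p = 0.0026), *Fpr1* by 3.41 ± 0.60 (log2, SE, adjusted p = 0.000613), *Pilrb1* by 1.35 ± 0.28 (log2, SE, adjusted p = 0.0022) and *Isg20* by 0.83 ± 0.22 (log2, SE, adjusted p = 0.013). *Fpr1* had at most 0.382 CPM in frHMGB1 against at least 15.8 in dsHMGB1, and *Saa3* at most 18.8 CPM against at least 359. Others of the 15 had a higher mean in frHMGB1 than in dsHMGB1, among them *Id3* (63.1 and 21.7 CPM), *Gadd45g* (41.9 and 17.1 CPM), *Pira2* (2.47 and 1.60 CPM) and *Gm21887* (0.87 and 0.61 CPM).

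The pathway that IFNγ uses and the one that LPS uses were read from lists with no member among the 53. Of 16 genes of IFNγ receptor signalling, 14 were higher than PBS in LPS, and in LPS/IFNγ 13 were higher and 1 lower. Of 22 genes that IFNγ induces, 20 were higher in LPS and 19 in LPS/IFNγ, with a median log2 fold change of 5.41 and 5.89. Of 26 genes of TLR4 signalling, 16 were higher and 3 lower in LPS, and 16 were higher and 6 lower in LPS/IFNγ. Among all genes tested, 26.7% were higher and 36.2% lower in LPS, and 29% and 31.2% in LPS/IFNγ, with medians of -0.27 and -0.15. As a description, the median log2 change from LPS to LPS/IFNγ was 0.38 for the genes that IFNγ induces. It was -0.21 for TLR4 signalling and -0.004 for IFNγ receptor signalling, beside 0.04 over all genes. The lists that held members were mixed. Of 25 growth factor genes, 15 were higher and 5 lower in LPS and 19 and 2 in LPS/IFNγ, of 17 prostaglandin genes 7 and 8 in LPS and 5 and 8 in LPS/IFNγ, and of 26 cell cycle genes 8 and 14 in LPS and 8 and 16 in LPS/IFNγ. *Cd14*, the co-receptor of TLR4, was looked up afterwards and had 194 CPM in PBS, 1614 in LPS and 486 in LPS/IFNγ.

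Of the other short motifs searched, those reported here were counted on either strand in the 42 matched promoters and in the 10248 promoters. The AP-1 letters TGANTCA were in 11.9% of them and 5.1% of all, and the C/EBP letters TTGCNNAA in 14.3% and 8.3%. The loose NF-κB letters, GGG and CC with 5 bases of any kind between them, were in 61.9% and 67.6%, the ETS letters GGAAGT in 33.3% and 28.8%, the MAF letters TGCTGA in 14.3% and 15.2%, and the CRE letters TGACGTCA in 2.4% and 3.1%. The AP-1 letters were found in 5 of the 42, namely *Ifit3*, *Ifit3b*, *Apol9b*, *Prdm1* and *Glrp1*. *Ifit3* and *Ifit3b* are near copies and carry the same letters TGATTCA, so they are not separate cases. None of the 5 genes lowered by LPS had an ISRE match in this window.

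In GENCODE M21, 14 of the 53 genes (26.4%) spanned under 5000 bp, compared with 11.2% of protein-coding genes tested, and the median span was 9551 and 23733 bp. All 5 genes lowered by LPS were that short, with a median of 2362 bp, whereas *Frmd4b* and *Tut4* spanned 330675 and 99996 bp. The letters ATTTA, the core of AU-rich elements that mark unstable transcripts, occurred after the stop codon in 69.2% of 52 genes with such sequence and in 70.2% of all. *Csf2*, whose transcript is known for such elements, had 9 in 317 bases, and *Gdf15* had 5 in 150 bases.

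Another gene shared at least 95% of bases over at least 50% of the transcript for 9 of the 53 genes, namely *Ifit3*, *Ifit3b*, *Apol9b*, *Pilrb1*, *Pira2*, *Slc28a2*, *Gm6793*, *Gm21887* and *1700047I17Rik2*, and their counts are uncertain. At the edges of the rule, *Tmem229b* (ratio 4.04), *Apol9b* (4.04) and *Slamf9* (4.06) lay just inside and *Lag3* (3.97) and *Nxpe3* (3.90) just outside. By LPS level, *Plcl1* (2.22 CPM), *Gm21887* (2.96) and *Rnf225* (3.00) were the lowest kept, and *Fam3b* (1.58), *Mfsd6l* (1.57) and *Tnni3* (1.47) fell short. By the dsHMGB1 limit, *Rtn2* (1.35), *Slc6a4* (1.28) and *Fpr1* (1.19) were kept, and *Hhex* (1.52), *Arhgef37* (1.54) and *Tsc22d1* (1.65) were among 8 genes left out. The symbol rule left out 12 cytokine genes that met the other limits, *Ccl3*, *Ccl4*, *Ccl17*, *Ccl20*, *Cxcl1*, *Cxcl2*, *Cxcl3*, *Il1a*, *Il1b*, *Il10*, *Il19* and *Il23a*.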

How the data were processed

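RNA was sequenced from 15 samples of mouse BMDMs, 3 for each of 5 conditions. Per the methods of the study and the labels, the authors made stranded mRNA libraries, aligned paired-end reads to GRCm38 with STAR and deposited raw counts, whole numbers of reads per Ensembl gene without normalization. Which program counted the reads, and whether by strand, is not given in the sources used here. Annotation was GENCODE M21, which held 51661 of the 51763 identifiers.

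Genes were filtered with filterByExpr of edgeR 4.0.16 (10 counts, 15 in total), scaled by TMM and tested with the quasi-likelihood test in R 4.3.3, two-sided, all 15 libraries in one fit without covariates, with Benjamini-Hochberg adjusted p-values over 16919 genes. The SE is the absolute log2 fold change divided by the square root of F. The members and the lists were chosen with earlier results of these data known, and the contrast that chose the members (LPS with LPS/IFNγ) and the ratio of dsHMGB1 to LPS were not tested. All members are counted, and the values of 1 member, of a few other genes and of 1 motif are not reported here. Those named with every library are, within each group by call, the 6 with the highest LPS mean and the 6 with the largest fall among members with an LPS mean of 5 CPM or more, members on a fixed list or in a family of 3 or more, and the genes at the edges of the rule. *Hdc*, *Vgf*, *Isg20*, *Pira2* and genes outside the 53 that are said to be looked up afterwards were chosen after their values were seen, and so were the genes named without every library. RPKM is the mean CPM per kilobase of merged exons. The scripts were tested on simulated data. Alternatives were RLE size factors, DESeq2 1.42.0, other filters on low counts, protein-coding genes alone, pairs of groups fitted alone, a replicate block, other limits of the rule, and each library left out. Every pair of replicates differed by more than sampling noise (chi-square per degree of freedom 4.49 to 843.8). Motifs were searched in RefSeq promoters of GRCm38.p6. The table held 0 columns without a sample.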

Additional observations from a re-analysis of the deposited data

How the results depend on the processing

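Of 3498 recomputed calls of the 53 genes in LPS, LPS/IFNγ and dsHMGB1 against PBS, 3443 kept their direction and side of the threshold, 39 were lost, 15 were gained and 1 turned: *Ier2* in dsHMGB1, -0.26 on the log2 scale, became 0.302 without PBS replicate 3 and ranged down to -0.502 when other libraries were left out. With each pair of groups fitted alone, 3 members were lower in LPS and 3 in dsHMGB1 (5 and 5 in the reported fit), 0 were higher in frHMGB1 (3), 3 were lower in dsHMGB1 than in LPS/IFNγ (1), 4 were higher in LPS and lower in LPS/IFNγ (9), 5 had no call in LPS and were lower in LPS/IFNγ (2), and 3 were lower in both (5). These fits have fewer residual degrees of freedom. DESeq2 gave 9 members higher in frHMGB1 and 3 lower in dsHMGB1 than in LPS/IFNγ, and protein-coding genes alone gave 1 higher in frHMGB1, and the cause was not tested.

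The rule chose 99 genes at a ratio of 3 and 28 at a ratio of 5. With a floor of 1 or 5 CPM it chose 60 or 44, without the dsHMGB1 limit 61, with RLE 57, with protein-coding genes alone 44, and with no filter or 1 CPM in 3 libraries 55 or 51. Leaving out 1 LPS, LPS/IFNγ or dsHMGB1 library gave 53 to 66 genes, and 50 of the 53 were kept each time. Leaving out any 1 of the 15 libraries gave 45 to 46 members higher and 5 to 6 lower in LPS, 27 to 29 higher and 14 to 17 lower in LPS/IFNγ, 41 to 45 higher and 5 to 6 lower in dsHMGB1, 2 to 15 higher and 0 to 2 lower in frHMGB1, and 37 to 45 higher and 1 to 2 lower in dsHMGB1 against LPS/IFNγ. The groups by call then held 27 to 29, 7 to 12, 7 to 10, 1 to 3 and 5 to 6 genes, in the order of the text. The highest count in frHMGB1 was without PBS replicate 3, and without frHMGB1 replicate 1 it was 5.

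Replicate numbers did not pair the samples (correlations of same-numbered deviations from -0.386 to 0.375). With them as a replicate block, 46 members were higher and 5 lower in LPS, 28 and 16 in LPS/IFNγ, 43 and 5 in dsHMGB1, and 2 and 0 in frHMGB1. Without a filter the median log2 fold change of all genes moved by 0.149 in LPS and 0.15 in LPS/IFNγ, and by 0.17 in LPS with pairs fitted alone. Members with 0 to 10 counts in PBS have folds that depth limits, and technical replicates of 1 pool limit every p-value.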
